A study of Mus musculus with 8 samples.

Results

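The genes of oxidative phosphorylation were described in mouse vagal ganglia. Members were the protein-coding genes whose symbol starts with Nduf, Uqcr, Cox4 to Cox8 or Atp5, together with Sdha to Sdhd, Cyc1 and Cycs, and the mitochondrial genes whose symbol starts with mt-Nd, mt-Co, mt-Atp or mt-Cytb. The rule found 109 genes among the 55335 genes of the count table, 96 encoded in the nucleus and 13 on the mitochondrial chromosome. Of these, 104 had enough counts to be tested, 91 nuclear and all 13 mitochondrial. The 5 members left untested were Cox6a2, Cox7b2, Cox8b, Cox8c and a second gene entry with the symbol Atp5o, and their counts are given with the tissue isoforms, except for the second Atp5o entry, which had 0 counts in each library.

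RNA was sequenced from whole vagal ganglia of wild-type (WT) mice treated either with HDM, which usually stands for house dust mite, an inhaled allergen, or with saline. Both groups were taken 1.5 h after challenge 4, and each group had 4 libraries. Each library pooled 6 to 8 ganglia, taken from 3 to 4 mice, and the labels pair 1 HDM and 1 saline pool in each of 4 batches. Ganglia hold sensory neurons together with glia, vessels and connective tissue, so in these bulk samples fewer cells of a type and less RNA per cell cannot be told apart. Library totals, in mega-counts (M), ranged from 23.95 to 26.67 in the HDM group and from 26.87 to 31.28 in the saline group, and of 17618 tested genes 244 passed an adjusted p of 0.05 in edgeR, which is 1.38%. A level is given in CPM, the count after scaling each library to the same total, as mean ± SD of 4 libraries, and differences are log2 fold changes, HDM over saline, written with ± the standard error (SE). The blocked fit adds the batch as a replicate block to the edgeR model, and 713 genes passed in it. Its pairing rests on the labels, since deviations of paired libraries from their group means correlated by only −0.050 to 0.035 over genes.

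Oxidative phosphorylation takes electrons from NADH and succinate and passes them along a chain in the inner mitochondrial membrane, while protons are pumped outward and their return drives the making of ATP. Complex I (NADH dehydrogenase) and complex II (succinate dehydrogenase) feed ubiquinone, complex III (the cytochrome bc1 complex) passes electrons to cytochrome c, complex IV (cytochrome c oxidase) hands them to oxygen, and complex V (ATP synthase) makes ATP. Complexes I, III, IV and V mix subunits from both genomes, complex II is wholly nuclear, and neurons are known for their heavy use of this pathway. The mitochondrial genes are transcribed as long precursors that are then cut, and mt-Nd6 is the protein gene read from the opposite strand.

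Some mitochondrial genes have near-identical copies in the nuclear genome, which bears on how their counts can be read. A run of annotated unprocessed pseudogenes on GRCm38 chromosome 1 (24611535 to 24616197, minus strand) matched stretches of 8 mitochondrial genes at 99.71 to 100% identity, mt-Atp8 only over the 43 bases that it shares with mt-Atp6. The first pair below shows 60 bases from within mt-Co2 (chrM:7213-7272, plus strand) and the matching stretch of its copy Gm28661 (chr1:24615306-24615365, minus strand), which hold the same letters throughout. The second pair shows the first 60 bases of mt-Nd3 (chrM:9459-9518, plus strand) and of its copy Gm28438 (chr1:24613060-24613119, minus strand), which differ by T3C, counted from the first base of mt-Nd3, and the capital marks that base.
mt-Co2: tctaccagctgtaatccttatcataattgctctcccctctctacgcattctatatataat
Gm28661: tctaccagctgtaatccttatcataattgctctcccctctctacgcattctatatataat
mt-Nd3: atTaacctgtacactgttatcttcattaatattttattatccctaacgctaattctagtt
Gm28438: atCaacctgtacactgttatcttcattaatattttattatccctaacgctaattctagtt

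A 50-base read that lies wholly within an identical stretch has no letter that tells its source, although the libraries were read as pairs and the mate of a read can lie outside the stretch. Of all 50-base windows of each mitochondrial gene, the share found letter for letter in annotated nuclear transcripts was 100% for mt-Co2, 99.9% for mt-Co3, 99.5% for mt-Atp6, 98.8% for mt-Nd4l and 98.0% for mt-Nd3. It was 62.2% for mt-Nd4 and 51.1% for mt-Co1, 8.2% for mt-Nd2 and 7.6% for mt-Nd5. For mt-Nd1, mt-Cytb, mt-Nd6 and mt-Atp8 it was 0%. Whether reads with several matches were dropped, shared or given to 1 place was not given in the sources used here.

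The levels of the 13 mitochondrial genes fell into a high and a low set. Per kilobase of transcript, mt-Co1, the catalytic subunit of complex IV, had the highest mean level over all 8 libraries with 8867 CPM per kilobase, followed by mt-Cytb, the cytochrome b of complex III, with 6563. The complex I subunits mt-Nd1, mt-Nd2, mt-Nd5 and mt-Nd4 followed with 5499, 3848, 3052 and 2801 CPM per kilobase. The other 7 lay between 92.8 CPM per kilobase for mt-Nd4l and 382 for mt-Co2. These 7 were the 5 genes whose windows nearly all recur in nuclear transcripts, together with mt-Nd6 and mt-Atp8. At 1 end mt-Nd6 (13552 to 14070) overlaps mt-Nd5 (11742 to 13565) on the opposite strand, and mt-Atp8 (7766 to 7969) overlaps mt-Atp6 (7927 to 8607). Such overlaps are not particular to the scarce genes, since the abundant mt-Nd4 and mt-Nd5 also overlap another member. The split into 6 abundant genes (each above 3000 CPM in saline) and 7 scarce ones (each below 300 CPM) was made after their values were seen.

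Counts in the table lay on the copies where the mitochondrial genes were scarce. Gm10925, the copy of mt-Atp6, had 859 CPM per kilobase against 306 for mt-Atp6. Gm28661 had 533 against 382 for mt-Co2, Gm28437 had 452 against 218 for mt-Co3, Gm28438 had 172 against 119 for mt-Nd3, and Gm10222 had 145 against 92.8 for mt-Nd4l. The abundant genes had far more counts than their partial copies, with 8867 CPM per kilobase for mt-Co1 against 670 for Gm29216, and 2801 for mt-Nd4 against 286 for Gm28439. The counts of these 5 scarce genes therefore cannot be cleanly told apart from those of their copies, while mt-Nd6 and mt-Atp8 have 0% of their windows in nuclear transcripts. For mt-Atp8 the 43 bases that match Gm10925 are too short to hold a 50-base window, so its 0% does not cover that stretch.

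The comparison of HDM with saline asks which transcripts differ in the ganglia soon after allergen exposure. Of the 13 mitochondrial genes, 0 passed with group as the only term (edgeR; 0 in limma-voom, which called 1.21% of genes), beside 1.23% of all tested genes called higher and 0.159% called lower. At an unadjusted p under 0.05 6 were lower and 2 higher, which 7.69% and 10.4% of all tested genes reached in those directions. With the batch as a replicate block, 6 fell, the 6 abundant ones, against 1.03% of all tested genes called lower and 4.05% called in either direction in that fit, and 0 rose. With the block and a correction for GC content together, explained further on, 0 of these 6 passed, with log2 fold changes of −0.13 for mt-Co1 to −0.081 for mt-Nd1 (edgeR adjusted p = 0.217 for mt-Co1 to 0.473 for mt-Nd2). DESeq2 called the same direction for these 6 (7 calls in all, 1 of them higher). Its share over genes was 7.38%, counted over the 11810 genes to which it gave an adjusted p. The median log2 fold change was −0.176 over the 6 abundant genes and 0.043 over the 7 scarce ones, beside −0.006 over all tested genes.

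mt-Co1 (ENSMUSG00000064351, chromosome M, 5328 to 6872) had 13710, 11730, 12510 and 12830 CPM in HDM 1 to 4 and 15800, 14230, 14070 and 14710 CPM in saline 1 to 4. Every HDM library lay below every saline library, HDM 1 being the highest of its group and saline 1 of the other. The means were 12690 ± 816 and 14700 ± 780 CPM (difference −0.21 ± 0.055, adjusted p = 0.0706 by edgeR and 0.0101 in the blocked fit). mt-Co1 overlaps mt-Ts1, a transfer RNA gene on the opposite strand.

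mt-Cytb had 7603, 6528, 7048 and 6989 CPM in HDM and 8537, 7747, 7742 and 7876 CPM in saline, again without overlap (difference −0.18 ± 0.053, adjusted p = 0.105 by edgeR and 0.0198 in the blocked fit). mt-Nd4 had 3312 to 3996 CPM in HDM and 4007 to 4246 in saline (difference −0.19 ± 0.054, adjusted p = 0.1 by edgeR and 0.0267 in the blocked fit). mt-Nd5 had 4934 to 5380 CPM in HDM and 5564 to 6218 in saline (difference −0.17 ± 0.048, adjusted p = 0.0897 by edgeR and 0.0257 in the blocked fit). The groups did not overlap for these 3 and mt-Co1, and 4.39% of all tested genes had every HDM library below every saline library.

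mt-Nd1 and mt-Nd2 had the same sign with overlapping groups. mt-Nd1 had 5510, 4543, 4894 and 4908 CPM in HDM and 5741, 5398, 5467 and 5637 CPM in saline (difference −0.16 ± 0.055, adjusted p = 0.144 by edgeR and 0.0406 in the blocked fit). mt-Nd2 had 3437 to 4154 CPM in HDM and 4148 to 4311 in saline (difference −0.16 ± 0.054, adjusted p = 0.137 by edgeR and 0.0473 in the blocked fit). In both, HDM 1 alone reached into the saline range, and HDM was lower than its saline partner in 4 of 4 batches, as for the other 4 abundant genes.

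The scarce genes did not all share that sign, with 5 positive and 2 negative. mt-Nd6 had 81.8, 74.0, 78.0 and 58.9 CPM in HDM and 55.7, 54.5, 64.6 and 61.7 CPM in saline. HDM 4 lay within the saline range, and the other 3 HDM libraries lay above it. Its log2 fold change was 0.31 (SE 0.088, adjusted p = 0.0955 by edgeR and 0.0718 in the blocked fit), and without HDM 4 it was 0.40 with an adjusted p of 0.0389. It did not pass when any other single library was left out. mt-Nd6 is also the gene that DESeq2 called higher (adjusted p = 0.0211). It shares its last bases with mt-Nd5 on the other strand, and since the strand setting of the counts is not given, reads over those bases cannot be told apart.

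mt-Atp8, a small subunit of the membrane part of ATP synthase, had 63.3, 61.8, 52.7 and 52.1 CPM in HDM and 47.9, 40.2, 54.0 and 51.5 CPM in saline (difference 0.25 ± 0.088, adjusted p = 0.163 by edgeR). The groups overlapped, and HDM was higher in 3 of 4 batches. mt-Co2, mt-Co3 and mt-Atp6 had log2 fold changes of 0.056, 0.043 and 0.020, and mt-Nd3 and mt-Nd4l had −0.036 and −0.097, with SEs of 0.065 to 0.075 and overlapping groups.

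The copies on chromosome 1 had small positive values. Their log2 fold changes ran from 0.024 for Gm10925 to 0.28 for Gm28438, and 0 of 7 passed with group only, while Gm28438 passed in the blocked fit (adjusted p = 0.0440 by edgeR, and 0.153 without the block). Summing each mitochondrial gene with its copy, a step chosen after the counts of the copies were seen, left mt-Co1 at −0.21 and mt-Nd4 at −0.17, since their own counts dominate. The sums of mt-Co2, mt-Co3 and mt-Atp6 with their copies had 0.084, 0.052 and 0.023, and those of mt-Nd3 and mt-Nd4l had 0.15 and 0.028. With these sums 0 mitochondrial genes passed (edgeR; 8 at an unadjusted p under 0.05).

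**Figure D1:**
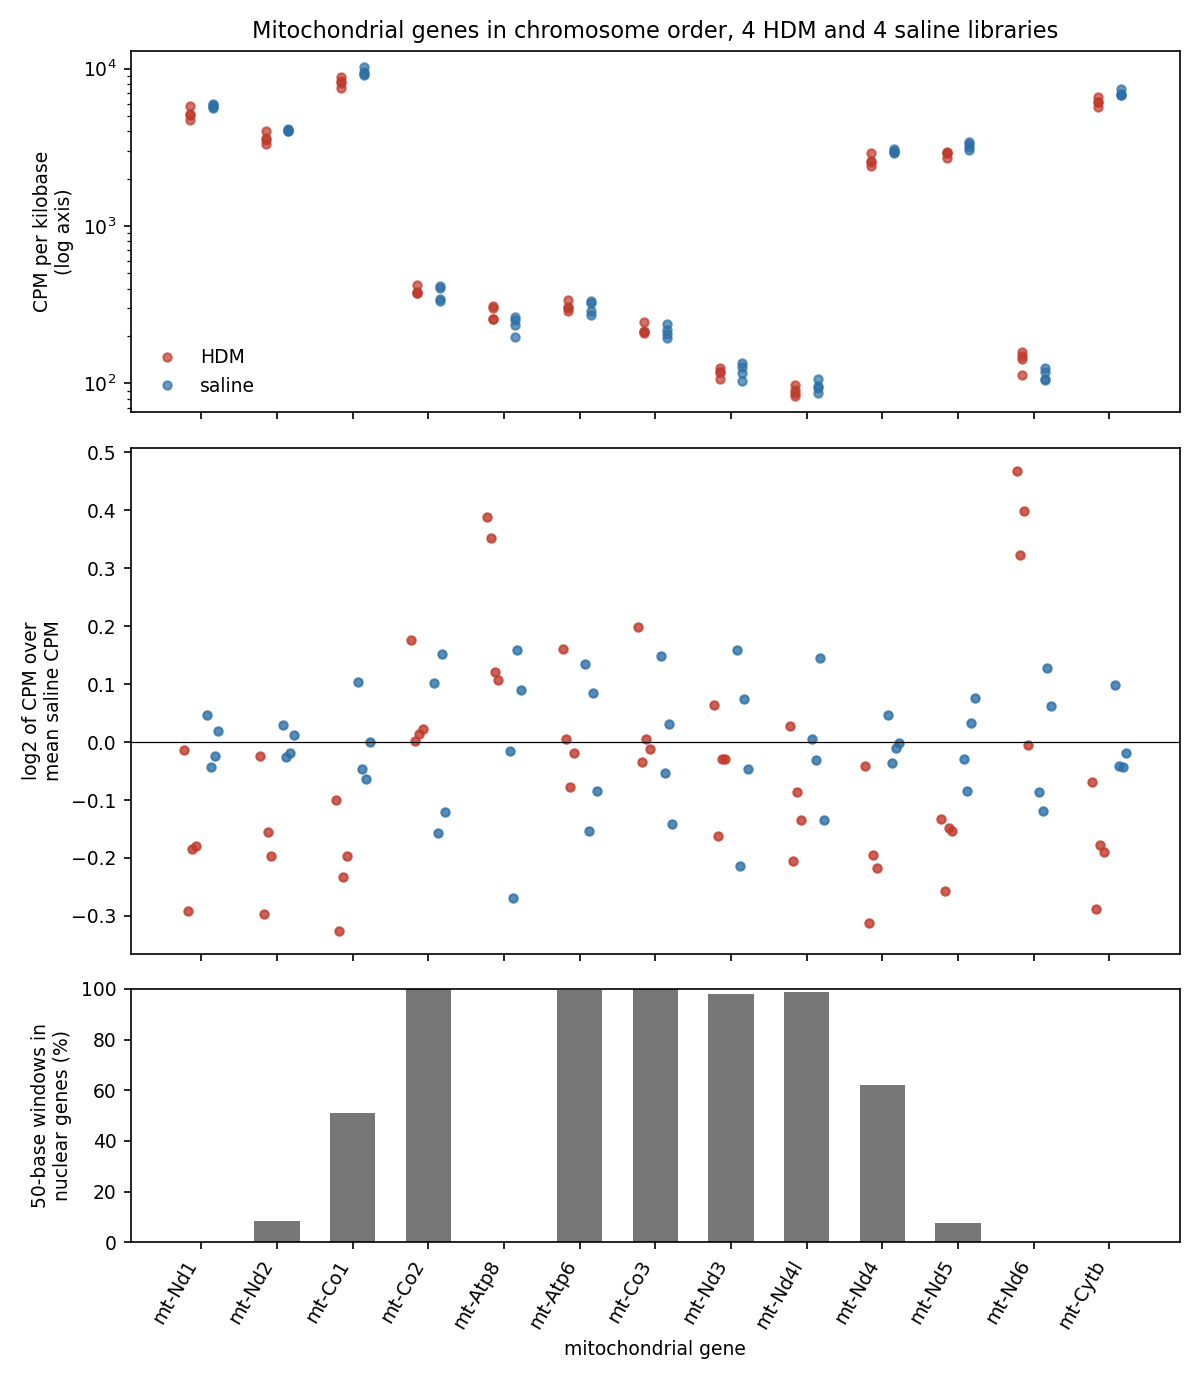
The 13 mitochondrial genes in chromosome order along the x axis, each point 1 library (HDM red, saline blue): top, level in CPM per kilobase on a log axis; middle, log2 of CPM over the mean saline CPM; bottom, percent of 50-base windows also present in annotated nuclear transcripts. At means of 2801 to 8867 CPM per kilobase sit 6 genes, whose HDM points lie below the saline points, except that HDM 1 reaches into the saline range for mt-Nd1 and mt-Nd2, while the 7 genes at means of 92.8 to 382 show overlapping groups.

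Summed over the 13 genes, the mitochondrial level was 41280, 35320, 37980 and 38050 CPM in HDM and 45280, 41840, 42440 and 43570 CPM in saline. The lowest saline library lay just above the highest HDM library. The means were 38160 ± 2440 and 43280 ± 1516 CPM, or 3.52 to 4.12% of all counts in HDM and 4.20 to 4.58% in saline. The 6 abundant genes made up nearly all of this sum, with 34490 to 40350 CPM in HDM and 41100 to 44420 in saline, while the 7 scarce genes summed to 809 to 932 CPM and 737 to 870 CPM with overlap. No test was run on these sums, because their members were chosen with results known.

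The nuclear genes did not follow. Their sum was 9694, 9171, 8968 and 9299 CPM in HDM and 9390, 9119, 8811 and 8685 CPM in saline, with overlapping groups and with HDM the higher in 4 of 4 batches. The ratio of the mitochondrial to the nuclear sum was 4.26, 3.85, 4.24 and 4.09 in HDM and 4.82, 4.59, 4.82 and 5.02 in saline. These ranges did not overlap. The sums and the ratio were not corrected for GC content, which differed between mitochondrial and nuclear genes (medians of 37.1 and 51.0%) and is taken up below.

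**Figure D2:**
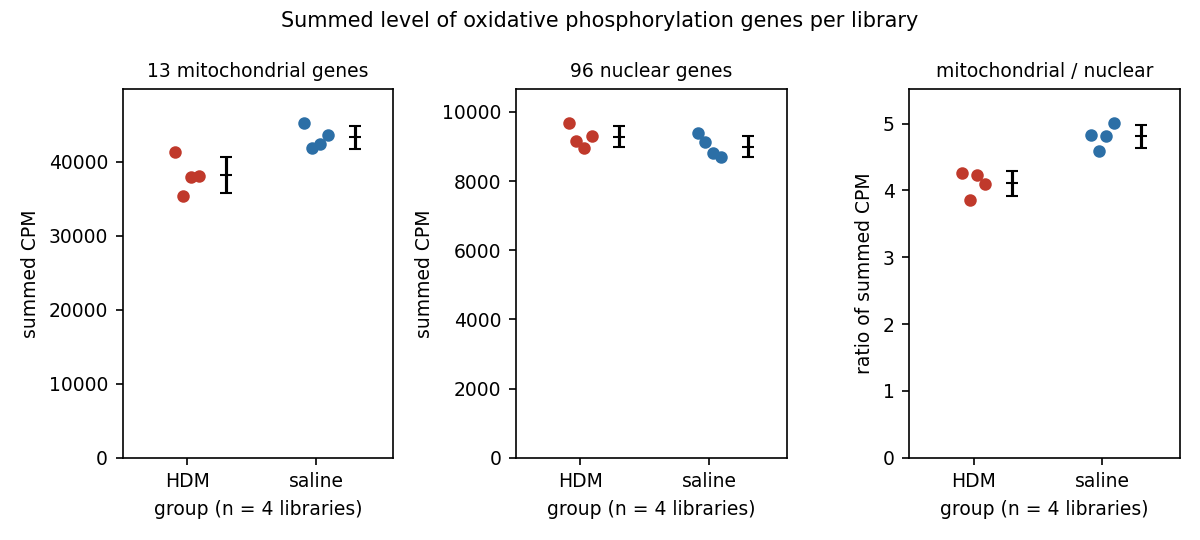
Summed CPM of the 13 mitochondrial genes (left), of the 96 nuclear genes (middle) and their ratio (right), each point 1 library, with mean ± SD of 4 libraries in black beside it and axes from 0. The HDM libraries sit below the saline libraries in the left and right panels, at 35320 to 41280 against 41840 to 45280 CPM and at 3.85 to 4.26 against 4.59 to 5.02, and mix with them in the middle panel.

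The mitochondrial ribosomal RNAs, which are made from the same chromosome, had negative values too. mt-Rnr1 had 460 ± 59.1 CPM in HDM and 570 ± 65.2 in saline (difference −0.31 ± 0.090, adjusted p = 0.102 by edgeR and 0.0168 in the blocked fit). mt-Rnr2 had 1100 ± 129 and 1314 ± 133 CPM (difference −0.26 ± 0.084, adjusted p = 0.133 by edgeR and 0.0202 in the blocked fit). With the block and the GC correction together they had −0.23 and −0.17 and did not pass (edgeR adjusted p = 0.193 and 0.270). The labels' kit selects mRNA, so these values describe what remained of the ribosomal RNA in the libraries.

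Among nuclear genes, 2 rose in HDM, Uqcrc1 and Ndufa8, and 0 fell (edgeR, group only; 16 higher and 4 lower at an unadjusted p under 0.05). This is 2 of 91, beside 1.23% of all tested genes called higher and 0.159% called lower. At an unadjusted p under 0.05 the shares over all tested genes were 10.4% higher and 7.69% lower (edgeR). limma-voom also called 2 higher and 0 lower, beside 1.07% of all genes called higher and 0.142% lower. DESeq2 called 5 higher and 3 lower, where it called 5.11% and 2.27% of the 11810 genes to which it gave an adjusted p. With the block 6 rose and 0 fell, beside 3.01% higher over all genes. The median log2 fold change of the 91 was 0.041, with 59 above 0, which is 0.139 above the median of the mitochondrial genes (−0.097). Without saline 3 this gap was 0.076, and with a correction for GC content it was 0.039. It was 0.018 with the mitochondrial genes summed with their copies, and it turned to −0.010 with a correction for GC content and length together. Single values ran from −0.18 for Atp5mpl to 0.26 for Ndufs6, 2 genes singled out here after their values were seen, neither of which passed.

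Uqcrc1 (ENSMUSG00000025651, chromosome 9, 108936633 to 108949623) encodes a core subunit of complex III that faces the matrix. It had 136, 136, 131 and 146 CPM in HDM and 119, 120, 111 and 121 CPM in saline. Every HDM library lay above every saline library. The means were 137 ± 5.97 and 118 ± 4.50 CPM (difference 0.22 ± 0.045, adjusted p = 0.0354 by edgeR and 0.0135 in the blocked fit).

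Ndufa8 (ENSMUSG00000026895, chromosome 2, 36036326 to 36049406) encodes an accessory subunit of complex I. It had 68.6, 66.9, 64.9 and 70.3 CPM in HDM and 60.8, 59.2, 57.5 and 58.2 CPM in saline, without overlap. The means were 67.7 ± 2.33 and 58.9 ± 1.42 CPM (difference 0.20 ± 0.044, adjusted p = 0.0439 by edgeR and 0.0288 in the blocked fit). Both calls rested on most of the libraries: Uqcrc1 passed when HDM 3 or saline 4 was left out and in none of the other 6 cases, and Ndufa8 passed when HDM 3 was left out and in none of the other 7. When corrected for GC content, as explained below, the log2 fold changes were 0.14 for Uqcrc1 (adjusted p = 0.235) and 0.145 for Ndufa8 (adjusted p = 0.193).

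Nuclear respiratory factor 1, NRF1, is a known activator of respiratory chain genes, and its part in these differences was not tested. The promoters of Uqcrc1 and Ndufa8 are printed as those of the nuclear members called with group only. They are RefSeq sequences on GRCm38.p6, from 250 bases before to 50 bases after the start of transcription, Uqcrc1 at chr9:108936398-108936697 (plus strand) and Ndufa8 at chr2:36049289-36049588 (minus strand). Capitals mark matches to the NRF1 motif (GCGC, then any base, then TGCGC), searched on both strands.
Uqcrc1: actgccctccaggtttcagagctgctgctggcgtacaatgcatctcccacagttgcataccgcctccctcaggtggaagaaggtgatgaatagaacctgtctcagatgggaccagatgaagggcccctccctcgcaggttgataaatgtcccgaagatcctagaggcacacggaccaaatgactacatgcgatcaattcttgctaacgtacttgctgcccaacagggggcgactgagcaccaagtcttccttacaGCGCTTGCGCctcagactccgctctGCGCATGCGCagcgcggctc
Ndufa8: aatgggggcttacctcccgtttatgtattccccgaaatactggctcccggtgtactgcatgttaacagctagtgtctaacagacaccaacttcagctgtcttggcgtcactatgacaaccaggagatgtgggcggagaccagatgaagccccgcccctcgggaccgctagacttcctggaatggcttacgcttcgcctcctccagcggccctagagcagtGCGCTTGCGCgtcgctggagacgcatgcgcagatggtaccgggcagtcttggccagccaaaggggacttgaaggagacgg

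Uqcrc1 held 2 matches, starting 6 and 31 bases into the transcript, and Ndufa8 held 1, starting 30 bases before it. The promoters of Ndufb8, Ndufa13, Ndufb10 and Atp5d, the other nuclear members that rose with the block, held 0 NRF1 matches, Atp5d at both of its listed starts. Promoters were found for 75 of 95 nuclear member symbols. An NRF1 match was in 19 of the 75 (25.3%), against 7.4% of all 16514 protein-coding genes with a promoter of that length, tested here or not. The ETS motif CCGGAAG, the site of the GABP factor (nuclear respiratory factor 2), was in 18 (24%) against 13.4%, and the YY1 motif AAGATGGC was in 10 (13.3%) against 3.6%. The TATA box letters TATAAA were in 7 (9.3%) against 14.3%. Each motif was searched on both strands, and none of the 4 contains another. A match is a description of letters and says nothing of binding in these ganglia.

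Complex I had 38 tested nuclear genes, Ndufa4 and Ndufa4l2 included under their Nduf symbols, with a median log2 fold change of 0.053. Ndufa8 alone passed with group only. With the block Ndufb8, Ndufa13 and Ndufb10 passed as well, all accessory subunits and all higher in 4 of 4 batches. Together with Ndufa8 they are 4 of 38, beside 3.01% of all tested genes called higher in that fit. Ndufb10 falls outside the rule for named genes and was chosen after its values were seen.

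Ndufb8 had 78.2, 74.0, 71.1 and 68.7 CPM in HDM and 66.8, 66.2, 62.2 and 57.9 CPM in saline (difference 0.21 ± 0.056, adjusted p = 0.0822 by edgeR and 0.0228 in the blocked fit). Ndufb10 had 71.3 to 82.4 CPM in HDM and 65.0 to 69.0 in saline (difference 0.18 ± 0.049, adjusted p = 0.0865 by edgeR and 0.0496 in the blocked fit). Neither pair of groups overlapped, and Ndufb8 overlaps Gm20538 on the same strand. Ndufa13 had 75.4 to 90.6 CPM in HDM and 59.6 to 86.1 in saline, with overlap (difference 0.21 ± 0.090, adjusted p = 0.243 by edgeR and 0.0372 in the blocked fit). Ndufa13 overlaps Tssk6 on the opposite strand. With the block and the GC correction together Ndufb8, Ndufb10 and Ndufa13 had 0.14, 0.12 and 0.091 and did not pass (edgeR adjusted p = 0.144, 0.256 and 0.340).

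Of the 7 nuclear core subunits of complex I, which carry the electron path, 0 passed in edgeR with either term (0 at an unadjusted p under 0.05; 0 in DESeq2 and in limma-voom), and their median was 0.048. The 29 accessory subunits had a median of 0.058. The 8 assembly factors with an Ndufaf symbol, which help build complex I and are not part of it, had a median of 0.042 and 0 calls in edgeR (0 at an unadjusted p under 0.05; 0 in DESeq2 and in limma-voom). Per kilobase they were far below the subunits, with a median of 12.4 CPM per kilobase against 67.6. Ndufaf5, Ndufaf2 and Ndufaf1 were the highest of them with 18.8, 18.1 and 15.1, and Ndufaf8 had the largest positive difference, 0.21 with an SE of 0.137.

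Ndufa4, once placed in complex I and now known as a subunit of cytochrome c oxidase, had the highest level of any Nduf gene, 285 CPM per kilobase. It had 171, 161, 166 and 164 CPM in HDM and 181, 181, 183 and 182 CPM in saline. Every HDM library was below every saline library, and the SD was 4.19 CPM in HDM and 1.03 CPM in saline. The log2 fold change of −0.13 (SE 0.038) did not pass (adjusted p = 0.0937 by edgeR and 0.0562 in the blocked fit), while DESeq2 called it lower (adjusted p = 0.0113). Next in level among Nduf genes were Ndufa11 and Ndufb8 with 110.1 and 100.2 CPM per kilobase.

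Complex II had 4 genes with a median log2 fold change of 0.026, and 0 passed by edgeR (1 at an unadjusted p under 0.05; 0 in DESeq2 and in limma-voom). Sdha, the flavoprotein that oxidises succinate, had 349, 342, 329 and 356 CPM in HDM and 329, 323, 313 and 322 CPM in saline (difference 0.095 ± 0.042, adjusted p = 0.248 by edgeR). HDM 3 lay within the saline range, and HDM was higher in 4 of 4 batches. Sdhb, the iron-sulfur subunit, had 0.079, and the membrane anchors Sdhc and Sdhd had −0.027 and −0.044. Sdha, Sdhb and Sdhd had 115, 100.2 and 79.3 CPM per kilobase, and Sdhc had 17.0.

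Complex III had 9 nuclear genes with a median of 0.063, and Uqcrc1 alone passed, in both fits. Cyc1, the cytochrome c1 that hands electrons to cytochrome c, had 85.4, 91.7, 84.3 and 87.6 CPM in HDM and 83.7, 80.5, 77.6 and 81.2 CPM in saline. The groups did not overlap, but the difference did not pass (difference 0.11 ± 0.044, adjusted p = 0.202 by edgeR), and it was −0.020 after the GC correction. Uqcrh, the hinge protein, had the highest level with 269.7 CPM per kilobase and a log2 fold change of 0.031. Uqcr10 and Uqcr11, 2 small subunits, followed with 140.0 and 138 CPM per kilobase. The log2 fold change of Uqcr11 was 0.20 (SE 0.088, adjusted p = 0.253 by edgeR and 0.0547 in the blocked fit). Cycs, cytochrome c itself, had 110 ± 8.97 CPM in HDM and 104.5 ± 4.46 in saline (difference 0.072 ± 0.057, adjusted p = 0.535 by edgeR).

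Complex IV had 18 nuclear genes, 14 of them tested, with a median of 0.034 and 0 calls in edgeR with either term (2 at an unadjusted p under 0.05, both higher; 0 in DESeq2 and in limma-voom). It had the highest median level of the 5 complexes, 165 CPM per kilobase. Cox4i1, a large nuclear subunit, had 225 to 248 CPM in HDM and 199.5 to 228 in saline (difference 0.12 ± 0.051, adjusted p = 0.22 by edgeR). Cox6a1 had 162 to 181 and 152 to 168 CPM (difference 0.12 ± 0.048, adjusted p = 0.216 by edgeR, and −0.009 after the GC correction). Cox7b lay the other way, at 126.5 to 134 CPM in HDM and 136 to 140.3 in saline, without overlap (difference −0.077 ± 0.038, adjusted p = 0.305 by edgeR, and 0.001 after the GC correction). Cox4i1 overlaps Emc8 on the opposite strand.

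Complex V had 18 nuclear genes, 17 of them tested, with a median of 0.027, and 0 passed with group only in edgeR (3 higher and 2 lower at an unadjusted p under 0.05; 1 higher and 2 lower in DESeq2; 0 in limma-voom). Over all tested genes 10.4% were higher and 7.69% lower at an unadjusted p under 0.05 (edgeR). DESeq2 called 5.11% higher and 2.27% lower of the 11810 genes to which it gave an adjusted p. With the block Atp5d passed, the delta subunit of the rotating stalk. It had 128, 130.3, 126.5 and 125 CPM in HDM and 124, 113.5, 106 and 106 CPM in saline, without overlap (difference 0.18 ± 0.052, adjusted p = 0.0911 by edgeR and 0.0413 in the blocked fit). Saline 1 lay closest to the HDM group, and without it Atp5d had 0.23 and passed with group only (adjusted p = 0.0302). It did not pass when any other single library was left out (edgeR adjusted p = 0.0953 without HDM 3 to 0.2616 without saline 3). With the block and the GC correction together Atp5d had 0.064 and did not pass (edgeR adjusted p = 0.452). Atp5d overlaps Cbarp on the opposite strand.

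Atp5b, the catalytic beta subunit, had the highest level per length of all nuclear members, 569.8 CPM per kilobase. It had 1143, 1118, 1076 and 1156 CPM in HDM and 1086, 1079, 1025 and 1051 in saline, with HDM 3 inside the saline range (difference 0.084 ± 0.043, adjusted p = 0.317 by edgeR). Its partner Atp5a1, the alpha subunit, had 705 to 757.5 CPM in HDM and 657.5 to 696 in saline, without overlap (difference 0.11 ± 0.043, adjusted p = 0.205 by edgeR). Atp5l, subunit g of the membrane part, had 85.8 to 91.9 CPM in HDM and 96.0 to 99.4 in saline, also without overlap and in the other direction (difference −0.13 ± 0.040, adjusted p = 0.11 by edgeR and 0.0800 in the blocked fit, while DESeq2 called it lower with adjusted p = 0.0393). Atp5mpl, a small proteolipid of ATP synthase, had 57.3 to 68.88 CPM in HDM and 68.89 to 74.6 in saline (difference −0.18 ± 0.055, adjusted p = 0.12 by edgeR).

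In all, 7 nuclear genes had every HDM library above every saline library, Ndufa8, Ndufb8, Ndufb10, Uqcrc1, Cyc1, Atp5a1 and Atp5d, which is 7 of 91 beside 6.25% of all tested genes. The reverse held for 4, Ndufa4, Cox7b, Atp5l and Atp5mpl, beside 4.39%. These shares are near those of all genes. In complexes I, III, IV and V the nuclear median was positive, while the mitochondrial genes of these complexes differed among themselves. In complex I mt-Nd6 was positive and the other 6 negative, and in complex III mt-Cytb was negative. In complex IV mt-Co1 was negative and mt-Co2 and mt-Co3 were positive, and in complex V mt-Atp6 and mt-Atp8 were positive. The signs of mt-Nd3, mt-Nd4l, mt-Co3 and mt-Atp6 turned under some of the alternatives, as given in the closing section.

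**Figure D3:**
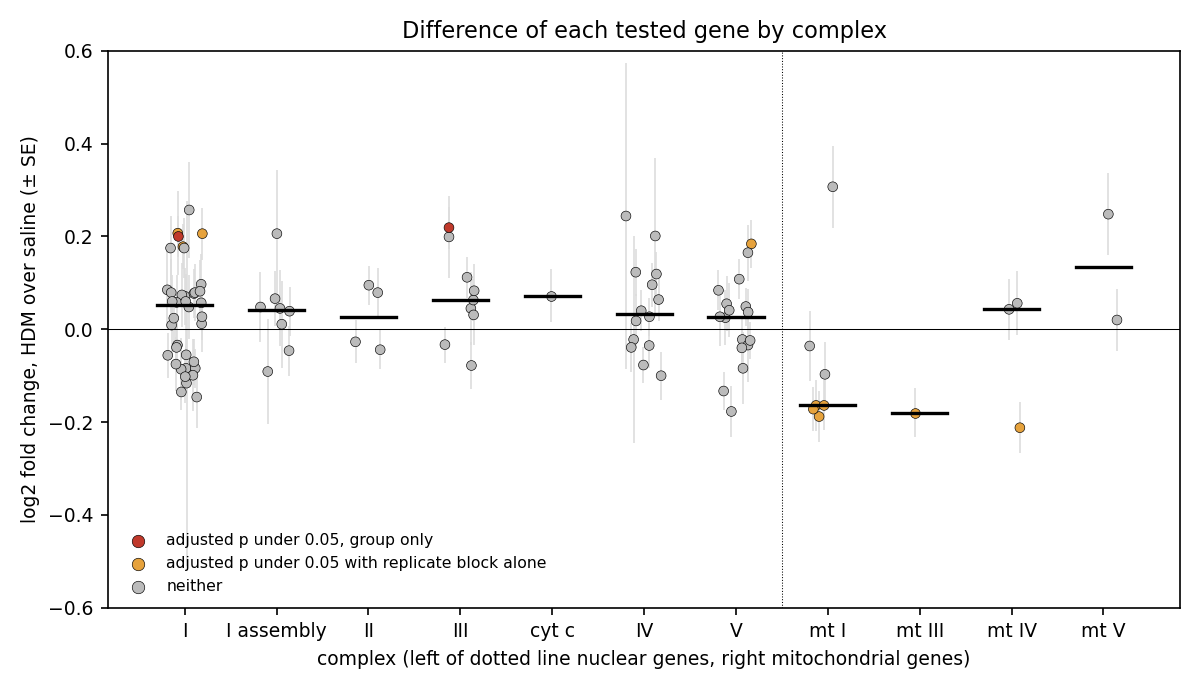
Log2 fold change of HDM over saline (y axis, ± SE) of each of the 104 tested genes by complex, nuclear genes left of the dotted line and mitochondrial genes right of it, with a black bar at each median. The nuclear medians lie between 0.026 and 0.072, and the 6 genes in orange at the right, called with the replicate block alone, lie between −0.21 and −0.16.

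The difference of a gene went with the GC content of its transcript, over all genes and among the nuclear members. Of 91 nuclear members, 48 had a GC content above 50.3%, the median of tested genes, and their median log2 fold change was 0.079, with both calls among them. The other 43 had a median of −0.033 and 0 calls in edgeR (1 higher and 3 lower at an unadjusted p under 0.05; 3 lower in DESeq2; 0 in limma-voom). Over all tested genes the genes above and at or below that GC content had medians of 0.056 and −0.057, with 212 of 216 higher calls in the first and 24 of 28 lower calls in the second.

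The mitochondrial genes had 31.9 to 41.1% GC, below nearly all nuclear members, which had 39.9 to 61.4%. The 1154 tested genes in that low range had a median of −0.098, beside −0.097 for the 13 mitochondrial genes. The median was −0.176 for the 6 abundant ones and 0.043 for the 7 scarce ones, whose median GC contents were 37.4% and 36.0%. Within the mitochondrial genes the set of higher GC content thus had the lower values. When a curve of level on GC content was fitted in each library and used as an offset, the median was 0.024 over nuclear members, −0.016 over mitochondrial members and −0.091 over the 6 abundant ones. In that fit 0 members and 0 genes passed by edgeR (2150 genes at an unadjusted p under 0.05, 13 of them nuclear and 3 mitochondrial members; DESeq2 and limma-voom were not run with it). With the block and this correction together 31 genes passed, mt-Nd6 among them (log2 fold change 0.38, edgeR adjusted p = 0.0437) and 0 nuclear members.

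**Figure D4:**
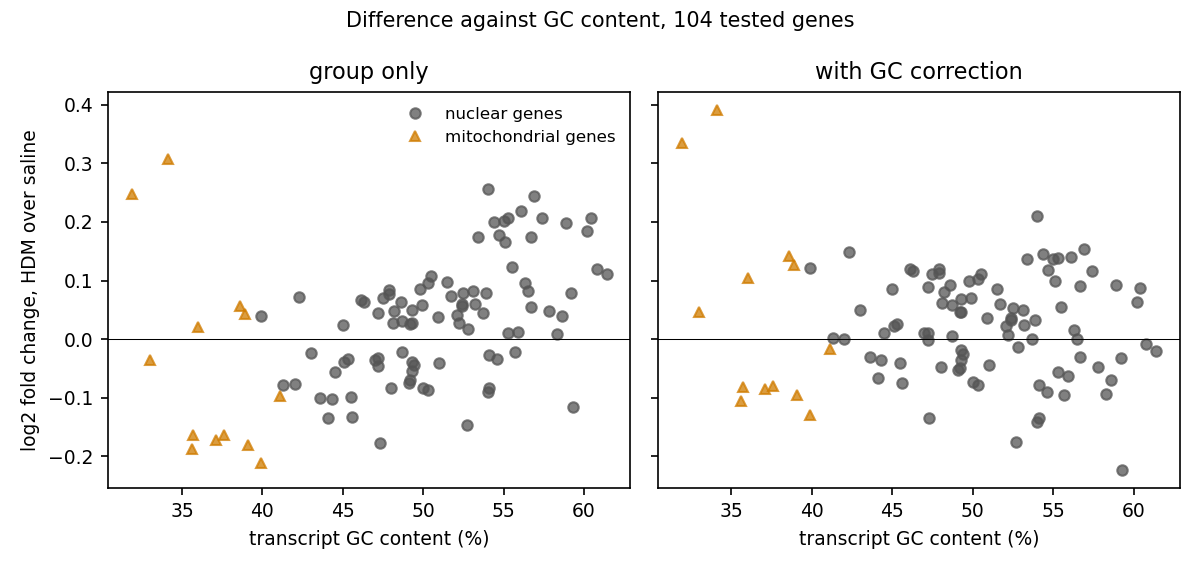
Log2 fold change of HDM over saline (y axis) against transcript GC content in percent (x axis) for the 104 tested genes, with group only (left) and with the GC correction (right), circles nuclear and triangles mitochondrial. On the left the nuclear points have a median of −0.033 in the lower GC range and 0.079 in the upper, and on the right the medians of the same sets are 0.022 and 0.028, while mt-Nd6 and mt-Atp8 lie at the top, at 34.1 and 31.9% GC.

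Markers of the cell types in a ganglion were read as well, and of their 13 sums only that of neurons had no overlap between the groups. The summed level of 10 neuron markers was 11050 to 11920 CPM in HDM and 10310 to 10550 in saline, without overlap. Of the 10, 6 had positive and 4 negative differences, and 2 were called higher, or 6 in the blocked fit, beside 1.23% of all tested genes called higher and 3.01% in the blocked fit. The 9 markers of myelinating Schwann cells summed to 2688 to 2961 CPM in HDM and 2810 to 3430 in saline. All 9 had negative differences. Of these, 2 were called lower, or 3 in the blocked fit, beside 0.159% of all tested genes and 1.03% in the blocked fit. The 7 satellite glia markers summed to 3019 to 3347 and 2781 to 3373 CPM, with 2 positive and 5 negative differences. Of these, 1 was called lower, beside 0.159% of all tested genes. In the blocked fit 1 was called higher and 1 lower, beside 3.01% and 1.03% of all tested genes. Markers of sympathetic neurons summed to 250.4 to 738 CPM in HDM, with HDM 4 the highest, and 120 to 325.5 in saline. All 4 had positive differences (median 1.008), and 0 were called in either fit (edgeR; 3 higher at an unadjusted p under 0.05). Erythroid markers summed to 45.6 to 77.7 CPM and 73.0 to 246.5, with saline 1 the highest. All 5 had negative differences (median −0.888), and 0 were called with group only (edgeR; 4 lower at an unadjusted p under 0.05). In the blocked fit 1 erythroid marker was called lower, beside 1.03% of all tested genes. With the GC correction 0 markers passed (edgeR), as for all genes. Median log2 fold changes then went from 0.149 to 0.080 for neuron markers and from −0.204 to −0.247 for Schwann cell markers. For satellite glia markers the median went from −0.176 to −0.093. The part of these cell types in the differences of mitochondrial and nuclear genes was not tested.

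Several subunits of complexes IV and V exist as isoforms, and in the Cox4, Cox6a, Cox6b, Cox7b and Cox8 families 1 common form made up at least 98.7% of the level. Shares here are of the summed CPM per kilobase of a family in each library. Cox4i1 made up 99.5 to 99.8% of its family, and Cox4i2, a form best known from lung, the rest, at a mean of 0.858 CPM per kilobase. Cox6a1 made up 99.9 to 100% and Cox6b1 98.7 to 99.2%, with Cox6b2, a testis form, at 0.823 to 1.27%. Cox8a made up 99.6 to 99.9%.

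Of the forms of heart and skeletal muscle, Cox6a2 and Cox8b were at or near 0, while Cox7a1 was measured in each library. Cox6a2 had 4 counts in HDM 1, 1 count in saline 4 and 0 in the other 6 libraries, and a count of 0 allows up to 0.0959 to 0.125 CPM in a library of this depth, counting error only. Cox8b had 0.0656 to 0.366% of its family, and Cox8c, a testis form, had 0 counts in all 8 libraries. Cox7b2 had 11 counts in all 8 libraries together. Cox7a1, the muscle form of Cox7a, had 68 to 105 counts in a library and a mean of 8.29 CPM per kilobase. It reached 2.49 to 3.82% of its family, beside 52.8 to 55.4% for Cox7a2 and 41.8 to 43.8% for Cox7a2l, which is known from supercomplexes of the respiratory chain. Skeletal muscle markers summed to 1.56 to 3.97 CPM and cardiac markers to 2.50 to 3.70 CPM over the 8 libraries.

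The 3 genes of the c subunit of ATP synthase encode the same mature protein with different targeting sequences. Atp5g3 made up 77.1 to 78.5% of their summed level, Atp5g2 13.9 to 15.4% and Atp5g1 6.90 to 8.02%. The order of Atp5g2 and Atp5g1 rests on the transcript length used, 731 bases for Atp5g2 and 4715 for Atp5g1. In CPM Atp5g1 was the higher, with means of 101.8 in HDM and 104.7 in saline against 30.82 and 29.65 for Atp5g2. It was also the higher per kilobase of the deposited gene length, 21.03 against 18.05 CPM per kilobase. Ndufa4l2, a paralogue of Ndufa4 known to be induced by low oxygen, was at 0.0958 to 0.308% of the level of the pair. The log2 fold changes of the tested minor forms were 0.24 for Cox4i2 (SE 0.33), 0.20 for Cox7a1 (SE 0.168), −0.022 for Cox6b2 (SE 0.223) and −0.12 for Ndufa4l2 (SE 0.393), and at such levels only differences well above these SEs could have been detected.

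**Figure D5:**
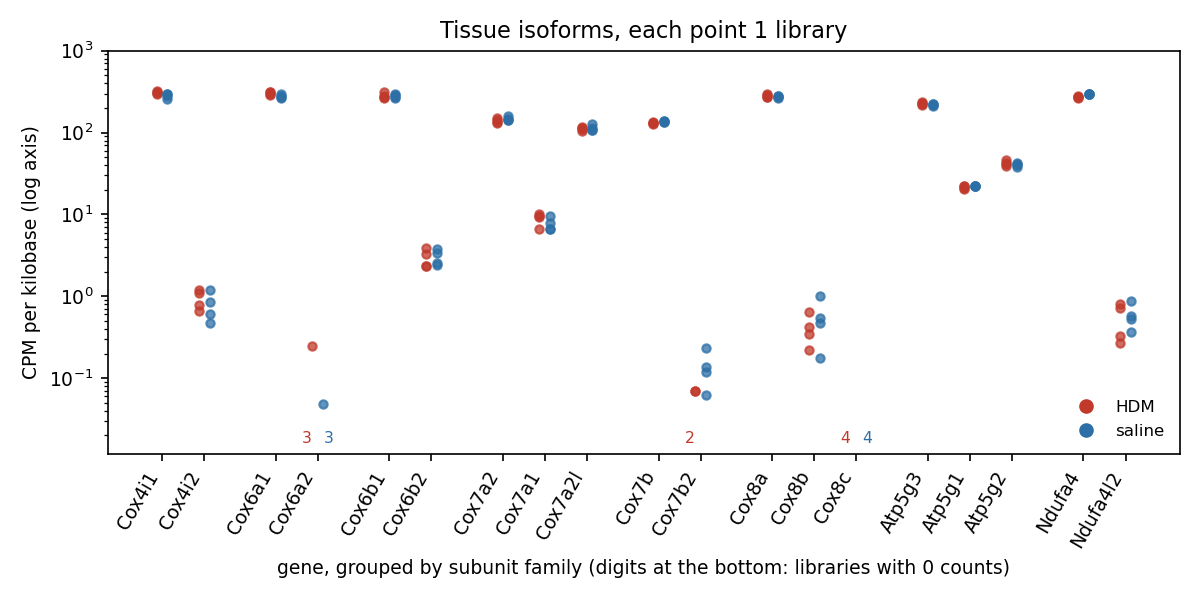
CPM per kilobase (log axis) of the tissue isoforms, grouped by subunit family along the x axis, each point 1 library (HDM red, saline blue), with digits at the bottom for the number of libraries at 0 counts. In each family the common form lies near or above 100 CPM per kilobase in every library, while Cox4i2, Cox6a2, Cox7b2, Cox8b and Ndufa4l2 lie near or below 1.

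Genes that act beside the respiratory chain were read from 8 lists, beside 1.23% of all tested genes called higher and 0.159% called lower. The shares at an unadjusted p under 0.05 were 10.4% higher and 7.69% lower (edgeR). DESeq2 called 5.11% higher and 2.27% lower of the 11810 genes to which it gave an adjusted p. Of 41 assembly factors of the complexes 0 passed (median log2 fold change 0.015; edgeR, 1 higher and 2 lower at an unadjusted p under 0.05; 0 in DESeq2 and in limma-voom). Of 25 tested genes for upkeep and expression of mitochondrial DNA 0 passed either (median −0.024; 2 higher and 3 lower at an unadjusted p under 0.05; 0 in DESeq2 and in limma-voom). Polrmt, the mitochondrial RNA polymerase, had 0.195 (SE 0.077, edgeR adjusted p = 0.208), and Mterf3, which represses mitochondrial transcription, had −0.18 (SE 0.064, edgeR adjusted p = 0.164).

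Of 77 tested mitochondrial ribosomal proteins 2 rose and 0 fell, beside those 1.23% and 0.159%, with a median of 0.033. Mrpl57 of the large subunit had 18.6 ± 1.15 CPM in HDM and 14.6 ± 0.683 in saline (difference 0.35 ± 0.071, adjusted p = 0.0336 by edgeR), and Mrps34 of the small subunit had 19.9 ± 0.273 and 16.3 ± 0.761 CPM (difference 0.29 ± 0.062, adjusted p = 0.0406 by edgeR). Of 15 regulators of mitochondrial biogenesis 0 passed (median 0.007; edgeR, 1 higher and 2 lower at an unadjusted p under 0.05; 1 lower in DESeq2; 0 in limma-voom). The deacetylase Sirt1 had −0.24 (SE 0.063, edgeR adjusted p = 0.0758) and Esrra, a nuclear receptor that activates respiratory genes, 0.17 (SE 0.071, edgeR adjusted p = 0.231).

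Of 20 genes of the tricarboxylic acid cycle and pyruvate dehydrogenase 0 passed (median 0.049; edgeR, 4 higher and 0 lower at an unadjusted p under 0.05; 0 in DESeq2 and in limma-voom). Of 14 membrane carriers 0 passed (median 0.007; edgeR, 3 higher and 0 lower at an unadjusted p under 0.05; 1 higher in DESeq2; 0 in limma-voom). Among glycolysis genes, 18 table entries for 17 symbols, 1 rose and 0 fell, beside 1.23% and 0.159% of all tested genes. The median of 0.109 was the highest of the 8 lists with group only, but after the GC correction it was 0.060, below the 0.077 of the tricarboxylic acid cycle list. Hk1, which starts glycolysis and is bound to mitochondria in neurons, had 460 ± 33.2 CPM in HDM and 375 ± 23.5 in saline (difference 0.295 ± 0.059, adjusted p = 0.0319 by edgeR). With the block 4 glycolysis genes rose, beside 3.01% of all tested genes, among them Pkm, pyruvate kinase (0.18, adjusted p = 0.0239), and Pfkl, a phosphofructokinase (0.21, adjusted p = 0.0345). With the block and the GC correction together these 2 had 0.12 and 0.12 and did not pass (edgeR adjusted p = 0.175 and 0.186), while Hk1 had 0.29 and passed (adjusted p = 0.0420). After the GC correction alone the log2 fold changes were 0.29 for Hk1, 0.36 for Mrpl57 and 0.165 for Mrps34, and none of the 3 passed (edgeR adjusted p = 0.130, 0.114 and 0.320).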

How the data were processed

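Counts per gene of 8 libraries, 4 HDM and 4 saline, were used as deposited; per the submitters' processing notes the authors made them with featureCounts on GRCm38 (mm10), and per the file headers each column comes from 1 merged alignment file. Per the labels' protocols the libraries were made with a stranded mRNA kit and read as pairs of 50 bp. Aligner, versions, strand setting and the handling of reads with several matches are not stated in the sources used here, so reads of overlapping genes on opposite strands may have been counted together. This concerns 31 nuclear and 3 mitochondrial members among those tested. Levels per kilobase of members use the principal transcript of GENCODE M21, and those of the copies use the gene length in the deposited table. That length was used for members only where Atp5g1 and Atp5g2 are compared. Of 55335 genes, 55154 had a symbol in GENCODE M21 and 54899 the same span. Of 122 symbols that match the rule, 13 are not protein-coding and were left out.

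The filter filterByExpr in edgeR 4.0.16 under R 4.3.3 removed 37717 genes, and 17618 remained. TMM factors scaled the counts, and the groups were compared by the 2-sided quasi-likelihood F-test of edgeR on group alone, with p-values adjusted over all tested genes by Benjamini-Hochberg. The threshold was an adjusted p of 0.05. The SE is the size of the log2 fold change divided by the square root of F. Since libraries are pools of animals, the spread holds animal and preparation differences. The labels give a batch equal to the replicate number, which pairs the libraries. A fit with the replicate block was therefore run as well. Over genes, libraries of 1 batch had deviations from the group means that correlated by −0.050 to 0.035, so the data give no sign of the pairing, which rests on the labels.

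The members and all lists were chosen with earlier results of these data known. The naming rule took members past the threshold, the 13 mitochondrial genes, tissue isoforms, the 3 highest levels and 2 smallest p of each complex, up to 8 further members called with the block, and up to 3 genes of each of the 8 pathway lists by p. Besides these, 13 lists of cell type markers were read, and the sums not given above follow here. Endothelial, pericyte, fibroblast, macrophage and mast cell markers overlapped between the groups (66.6 to 99.6, 114 to 141, 733 to 1031, 36.3 to 63.1 and 0.944 to 2.95 CPM summed over the 8 libraries), as did fat markers (12.5 to 22.2 CPM).

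Alternatives were DESeq2 size factors, library totals alone, totals without the mitochondrial chromosome, a filter of 1 CPM in 4 libraries, no filter, DESeq2 1.42.0, limma-voom (limma 3.58.1), the block, corrections for GC content and transcript length (an offset from a natural spline in each library, 4 degrees of freedom, using genes with a mean log2 CPM over 3), and leaving out each library. GC content was known for 99.9% of tested genes. Summing mitochondrial genes with their copies was added after the data were seen. Mitochondrial transcripts were matched to annotated nuclear transcripts with blastn and by exact 50-base windows. The fits were tested on simulated counts. A floor of 3 counts was used for a count of 0.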

Additional observations from a re-analysis of the deposited data

Results flagged for a closer look

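The screen covered 114 groups of 4 libraries (tested named members and sums over sets of genes, each in HDM and in saline). In 6 of them 1 library stood apart from the other 3 by a gap that, as a share of the group's range, exceeds Dixon's critical value for 4 samples. The untested isoforms and the sums of cell type markers were not screened. Among those sums, sympathetic neuron markers were at 738.3 CPM in HDM 4 against 250.4 to 280.7 in the other HDM libraries. Chance flags about 1 in 20 groups.

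Of the 6, 4 concern HDM 1. mt-Co2 was at 289.6 CPM there against 256.4 to 260.1 in the other HDM libraries, and mt-Co3 at 193.3 CPM against 164.5 to 169.0. The sum of the 7 scarce mitochondrial genes was 932.2 CPM in HDM 1 against 809.4 to 826.5, and the sum of the 7 copies on chromosome 1 was 2197 CPM against 1954 to 1983. These 4 values share counts or sequence and are not independent of each other.

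The other 2 concern saline 1. mt-Cytb was at 8537 CPM there against 7742 to 7876 in the other saline libraries, and the mitochondrial ribosomal RNAs summed to 2175 CPM against 1763 to 1830. Saline 1 also had the highest erythroid markers, 246.5 CPM against 73.0 to 76.2. Without that library mt-Cytb had a log2 fold change of −0.15 and mt-Rnr1 of −0.23.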

How the results depend on the processing

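The count of genes past the threshold (244 with group only) was 713 with the replicate block, 722 with no filter, 871 in DESeq2, 31 with the block and GC correction, and 0 with the GC correction or the GC and length correction (edgeR; 2150 and 2215 at an unadjusted p under 0.05). Nuclear members past it numbered 2 with group only, 6 with the replicate block, 4 with no filter, 8 in DESeq2, and 0 with the GC correction, the length correction, both, or the block and GC correction (13, 21, 17 and 22 at an unadjusted p under 0.05). Mitochondrial members past it numbered 0 with group only, 6 with the replicate block, 3 with no filter, 7 in DESeq2 and 1 with the block and GC correction. Leaving out 1 library gave 0 to 376 genes (0 without HDM 1, HDM 2 or saline 3, 60 without HDM 4, 97 without saline 2 and 376 without HDM 3), 0 to 3 nuclear members and 0 to 1 mitochondrial members. Among the members the block changed no call other than those given beside the results.

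The gap between the nuclear and the mitochondrial median log2 fold change (0.139) was 0.039 with the GC correction, 0.041 with the block and GC correction, −0.010 with the GC and length correction, 0.018 with the mitochondrial genes summed with their copies, and 0.076 to 0.167 without single libraries, the lowest without saline 3. The mitochondrial median (−0.097) was 0.037 with the GC and length correction and 0.023 with the sums, in which mt-Nd3 and mt-Nd4l turned positive. The nuclear median (0.041) ran from 0.011 without saline 4 to 0.066 without saline 1. The sign of some small differences that did not pass turned: Cox6a1 had −0.009, −0.009 and −0.011, Cyc1 −0.020, −0.020 and −0.029, and mt-Nd3 0.050, 0.047 and 0.078 with the block and GC correction, the GC correction, and the GC and length correction. mt-Nd3 also had −0.103 to 0.014 without single libraries (0.002 without HDM 2 and 0.014 without saline 1) and 0.152 summed with its copy, and mt-Nd4l had 0.037 with the GC and length correction and 0.028 summed. mt-Atp6 had −0.002 with the length correction and −0.031 to 0.061 without single libraries, below 0 without HDM 1, saline 2 or saline 4, and mt-Co3 had −0.014 to 0.090, below 0 without HDM 1 or saline 4. For these turns other than the sums, the cause was not tested. The 6 abundant mitochondrial genes kept a negative sign and Uqcrc1 and Ndufa8 a positive one in each of the 21 alternatives.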
